A study of Homo sapiens with 4 samples.

Results

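The genes of the D-type cyclins, of their kinases CDK4 and CDK6 and of the inhibitors of these kinases were examined in TPC1 cells under an FGF receptor inhibitor. The members were taken by symbol from the count table, CCND1, CCND2, CCND3, CDK4, CDK6, CDKN1A, CDKN1B, CDKN2A, CDKN2B and CDKN2C, which are 10 of its 20372 genes. All 10 were in the table, and 9 passed the filter on low counts that left 12549 genes for the test. CCND2 did not pass.

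D-type cyclins are made when growth factor receptors signal through the RAS and ERK cascade, and they bind and activate CDK4 and CDK6 in the G1 phase of the cell cycle. The active kinases phosphorylate the retinoblastoma protein, which releases E2F transcription factors and lets the cell enter S phase. The INK4 inhibitors, encoded by CDKN2A, CDKN2B and CDKN2C, bind CDK4 and CDK6 and keep the cyclin off, whereas the CIP/KIP inhibitors p21 and p27, encoded by CDKN1A and CDKN1B, act on several cyclin and kinase complexes and above all on CDK2. Loss of CDKN2A and gain of CCND1 are frequent in human tumors.

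TPC1 is an established line from a human papillary thyroid cancer that carries the CCDC6-RET fusion, and all cells in both groups carry it. Cells were kept in DMEM with serum and exposed to BGJ398, an inhibitor of FGF receptor kinases, for 6 h (2 libraries) or 24 h (2 libraries). The dose is uncertain, since the labels put it at 100 micromolar and the methods write that figure with nanomolar as the unit. Libraries from vehicle-treated cells were not analysed here, and each difference is therefore between 24 h and 6 h of inhibitor and not a response to the inhibitor. Libraries held 24958447 to 26325512 counts, and replicates of a time differed by more than counting error. The labels do not say that replicates came from separate cultures, so the p-values reflect library-to-library spread alone, and this spread may be technical. Of 7 thyroid markers, PAX8 was at 957 to 1069 CPM (counts scaled to a library of 1000000, with TMM factors), TG was at 14.1 to 15.6 CPM, FOXE1 was at 11.2 to 16.3 CPM, and TSHR and NKX2-1 were at 0 in every library. Summed markers of fibroblasts (5 genes, DCN and COL3A1 at 0) were at 13.6 to 15.9 CPM at 6 h and, at 24 h, 12.6 to 13.2 CPM. Those of endothelium (3 genes, mostly KDR) ranged over 3.75 to 8.36 CPM at 6 h and, at 24 h, 4.32 to 4.74 CPM. Counts of the mitochondrial genome took 1.68% and 2.98% of the 24 h libraries and 1.09% and 1.40% of the 6 h libraries. All 77 tested ribosomal protein genes had a log2 fold change above 0, with a median of 0.47 (0.27 without 24 h replicate 2). Both measures moved with time, and with the same genes left out of the fit CCND1 was at -0.40 and CDKN2B at -0.43. Leaving genes out alters little beyond the scaling, so this cannot show whether the members moved with these measures.

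CDKN2B and CCND1 showed the widest differences between the times among the members, both with less transcript at 24 h, and CDK4 was the closest to level. Log2 fold changes of 24 h over 6 h ran from -0.43 for CDKN2B to 0.11 for CDKN2A, with a median of -0.12 over the 9 members (-0.055 without 24 h replicate 2), against 0.00019 over all tested genes. Values of 7 members were below 0 and of 2 above, whereas 50.0% of all tested genes were below. The quasi-likelihood test of edgeR called 0 of 9 members at a Benjamini-Hochberg adjusted p under 0.05, as it called 0 of 12549 genes. At an unadjusted p under 0.05 it passed 2 members, CDKN2B and CCND1, against 24.4% of all tested genes. DESeq2 called 1 member, CCND1, against 8.23% of the 7410 genes with an adjusted p, or 2.65% when only genes lower at 24 h are counted and 5.59% when only higher ones are. The 6 h and 24 h values did not overlap in 8 members (6 lower and 2 higher at 24 h), a separation also seen in 62.8% of all tested genes (31.5% lower and 31.3% higher). With the replicate number as a block in edgeR, 3 members were called, all lower (CCND1, CDKN2B and CDK6), against 36.4% of all tested genes, or 17.5% counted as lower only. In bulk RNA fewer cells in a given phase and less transcript per cell cannot be told apart.

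**Figure D1:**
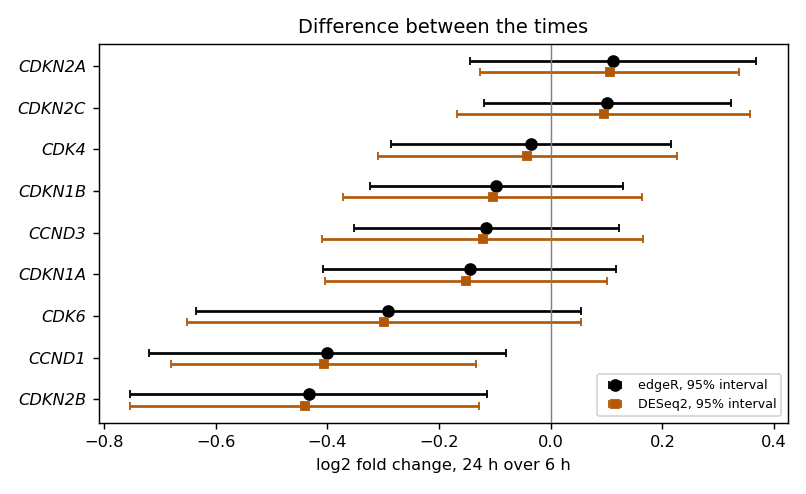
Log2 fold change of 24 h over 6 h (horizontal axis) for the 9 members that passed the filter, with 95% intervals from edgeR (black circles) and DESeq2 (orange squares), 2 libraries per time. Intervals of CDKN2B and CCND1 lie below 0 by both tools, and those of the other 7 members cross 0.

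Of the D-type cyclins, CCND1 carried most of the signal. CCND1 encodes cyclin D1, the member most tightly tied to ERK signaling (ENSG00000110092, hg19 chromosome 11, 69455855 to 69469242). It was at 595 and 507 CPM at 6 h and at 453 and 382 CPM at 24 h, so both late libraries were below both early ones. The log2 fold change of CCND1 was -0.40 ± 0.14 (SE; 95% interval -0.72 to -0.080), and 82.2% of all tested genes had a smaller difference in size. By edgeR the adjusted p was 0.174, DESeq2 gave 0.0464, and the 16 alternatives spanned 0.0015 to 0.9999. The call by DESeq2 rested on single libraries: its adjusted p was 0.00698 when 24 h replicate 1 was left out and 0.9999 when 24 h replicate 2 was. Leaving out 6 h replicate 1 gave 0.9988, and leaving out 6 h replicate 2 gave 0.0826. Replicate 2 lay below replicate 1 at both times, with log2 differences of -0.24 at 24 h and -0.23 at 6 h, in the direction of the time difference. With a trend on transcript length and GC content removed, the log2 fold change of CCND1 was -0.27.

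CCND3, which encodes cyclin D3, was at 44.7 and 43.0 CPM at 6 h and at 42.3 and 38.8 CPM at 24 h (ENSG00000112576, chromosome 6, 41902671 to 42018095). The groups did not overlap, but they were separated by less than the distance between the 24 h libraries. Its log2 fold change of -0.12 ± 0.10 had an interval of -0.35 to 0.12 and an adjusted p of 0.481 by edgeR. CCND2, which encodes cyclin D2, had 1 count in each 6 h library and 1 and 0 counts at 24 h (ENSG00000118971, chromosome 12, 4382938 to 4414516). A count of 0, as in 24 h replicate 2, allows up to 3 counts or 0.12 CPM, and a count of 1 allows more. The transcript of CCND2 was thus near the limit of detection, and no fold change is given. The ratio of CCND1 to CCND3 counts, which does not depend on scaling, was 13.3 and 11.8 at 6 h and 10.7 and 9.86 at 24 h. Both late ratios were thus below both early ones, but with 2 libraries per time the exact two-sided permutation test cannot give a p below 0.333.

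Neighbors of CCND1 on chromosome 11 were read from the same table. ORAOV1, whose span overlaps that of CCND1 by 1399 bases, was at 6.86 and 9.60 CPM at 24 h and at 7.01 and 8.91 CPM at 6 h, far below CCND1. MYEOV, the nearest gene on the other side, had a log2 fold change of 0.029 ± 0.11, and TPCN2 beyond it one of -0.11 ± 0.14. FGF19, the gene of a hormone-like fibroblast growth factor, had 0 to 4 counts per library. The 3 tested genes of at least 10 CPM whose profile over the 4 libraries was most like that of CCND1 were ITPKB, AEBP2 and RAB3GAP1. Their centered log2 CPM differed from that of CCND1 by a root mean square of 0.0081, 0.0098 and 0.010, among 9378 genes compared over 4 libraries.

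**Figure D2:**
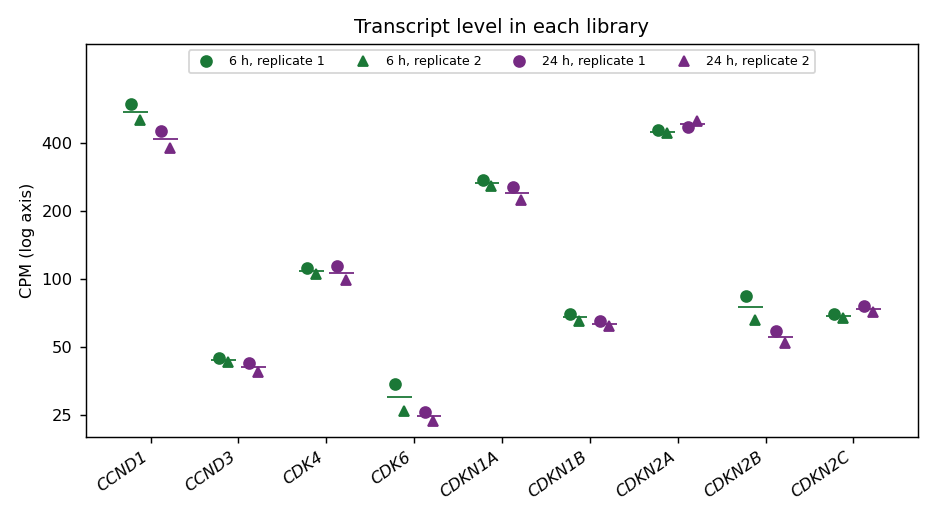
CPM (vertical log axis) of each member that passed the filter in the 4 libraries, in green for 6 h and purple for 24 h, with circles for replicate 1, triangles for replicate 2 and a bar at the mean of each time. CCND1 lies at 595 and 507 CPM at 6 h and, at 24 h, at 453 and 382 CPM, while the CDK4 points of both times overlap.

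The kinase genes differed from each other in level and in spread. CDK4 was at 112 and 105 CPM at 6 h and at 114 and 98.4 CPM at 24 h (ENSG00000135446, chromosome 12, 58141510 to 58149796), the only tested member whose times overlapped. The difference for CDK4 was -0.035 ± 0.11 on the log2 scale, with an interval of -0.29 to 0.21 and an adjusted p of 0.850 by edgeR, and 9.14% of all tested genes had a smaller difference in size. CDK6 was at 34.2 and 26.0 CPM at 6 h and at 25.7 and 23.5 CPM at 24 h (ENSG00000105810, chromosome 7, 92234235 to 92465908). Its 6 h replicate 2 lay almost level with 24 h replicate 1, and 6 h replicate 1 stood above the other libraries. The log2 fold change of CDK6 was -0.29 ± 0.15 (adjusted p = 0.254 by edgeR), and it was -0.082 without 6 h replicate 1. The span of CDK4 overlaps that of TSPAN31 by 2485 bases and that of MARCHF9 by 916 bases, and whether strand was used in counting is not known here. TSPAN31 had a value of the other sign, at 36.2 and 34.2 CPM at 6 h and 40.9 and 50.7 CPM at 24 h, with a log2 fold change of 0.38 ± 0.13 (adjusted p = 0.173 by edgeR and 0.107 by DESeq2).

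The upstream sequence of CDK4 is shown because it held more copies than any other member window of the E-box CACGTG, which is bound by MYC and related factors. Windows of 250 bases before each RefSeq start (GRCh38.p14) were searched on both strands, with 14 windows for 8 of the 10 members. CCND1 and CCND2 had no window in the set, so their upstream sequences were not searched. The E-box letters were found in 6.34% of all 35116 such windows and in 3 of the 14 member windows. That of CDK4 held 3 copies, in capitals, and 2 windows of CDKN2C held 1 each. No other searched motif overlapped the copies in CDK4.
CDK4, chr12:57752311-57752560, minus strand: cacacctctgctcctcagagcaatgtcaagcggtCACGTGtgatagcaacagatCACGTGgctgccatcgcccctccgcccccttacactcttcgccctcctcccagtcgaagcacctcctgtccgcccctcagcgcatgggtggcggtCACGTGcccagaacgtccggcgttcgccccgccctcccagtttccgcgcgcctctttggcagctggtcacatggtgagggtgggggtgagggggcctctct
A match is only a description of these letters. MYC transcript is given with the regulators below.

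Transcripts of the CIP/KIP inhibitors were slightly lower at 24 h, by less than the test could resolve. CDKN1A, which encodes p21, was at 274 and 257 CPM at 6 h and at 256 and 224 CPM at 24 h (ENSG00000124762, chromosome 6, 36644305 to 36655116). The lower early library and the upper late one were nearly equal. CDKN1A had a log2 fold change of -0.15 ± 0.11 and an interval of -0.41 to 0.12 (adjusted p = 0.426 with edgeR and 0.428 with DESeq2). CDKN1B, which encodes p27, was at 70.2 and 65.4 CPM at 6 h and at 64.8 and 61.9 CPM at 24 h (ENSG00000111276, chromosome 12, 12867992 to 12875305), with a log2 fold change of -0.097 ± 0.097 and a 95% interval of -0.32 to 0.13. The ratio of CDKN1A to CDKN1B counts was 3.90 and 3.94 at 6 h and 3.95 and 3.62 at 24 h, so the ratios of the times overlapped.

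The INK4 genes had values on both sides of 0. CDKN2B, which encodes p15INK4b and is a target of TGF-beta signaling, was at 84.2 and 65.5 CPM at 6 h and at 58.5 and 52.2 CPM at 24 h (ENSG00000147883, chromosome 9, 22002902 to 22009362). Both late libraries were below both early ones, and 6 h replicate 1 stood highest. The log2 fold change of CDKN2B was -0.43 ± 0.14, with an interval of -0.75 to -0.11, and 85.4% of all tested genes had a smaller difference in size. With edgeR the adjusted p was 0.173, with DESeq2 it was 0.0588, and the alternatives on all 4 libraries spanned 0.0010 to 0.259. DESeq2 without 6 h replicate 2 gave CDKN2B no adjusted p. Without 6 h replicate 1 the log2 fold change was -0.24 (adjusted p = 0.900 by edgeR), and without 6 h replicate 2 it was -0.61 (adjusted p = 0.0198 by edgeR). Removal of the length and GC trend left it at -0.43.

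CDKN2A was among the most abundant transcripts of these cells. This gene encodes p16INK4a and, from another first exon and reading frame, p14ARF, which restrains MDM2, and the count table does not separate the transcripts. CDKN2A was at 458 and 441 CPM at 6 h and at 473 and 499 CPM at 24 h (ENSG00000147889, chromosome 9, 21967751 to 21995300). The late libraries were above the early ones by less than the distance between the 24 h libraries. For CDKN2A the log2 difference was 0.11 ± 0.11 (95% interval -0.14 to 0.37, adjusted p = 0.526 by edgeR), and the sign turned (-0.0054) once the length and GC trend was removed. CDKN2C, which encodes p18INK4c, was at 70.2 and 67.4 CPM at 6 h and at 75.9 and 71.7 CPM at 24 h (ENSG00000123080, chromosome 1, 51426417 to 51440305). Its log2 fold change of 0.10 ± 0.096 had an adjusted p of 0.508 by edgeR, and the sign turned here as well (-0.17) with the trend removed.

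CDKN2A and CDKN2B lie next to each other on the same strand of chromosome 9, and the ratio of their counts was higher in both 24 h libraries. There were 5.44 and 6.74 counts of CDKN2A per count of CDKN2B at 6 h and 8.08 and 9.56 at 24 h. Both late ratios exceeded both early ones, and the smallest p that an exact two-sided permutation test of 2 against 2 libraries can give is 0.333. The upstream windows of these neighbors are printed so that they can be compared, with the GC box GGGCGG, or CCGCCC on the other strand, in capitals. CDKN2A has a window for each of its RefSeq starts, the inner one at the transcript of p16INK4a.
CDKN2A inner start, chr9:21974858-21975107, minus strand: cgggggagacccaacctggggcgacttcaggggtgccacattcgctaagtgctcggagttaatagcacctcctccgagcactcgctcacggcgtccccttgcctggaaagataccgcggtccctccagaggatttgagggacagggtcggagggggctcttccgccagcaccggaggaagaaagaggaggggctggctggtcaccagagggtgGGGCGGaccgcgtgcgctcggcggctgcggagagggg
CDKN2A outer start, chr9:21995325-21995574, minus strand: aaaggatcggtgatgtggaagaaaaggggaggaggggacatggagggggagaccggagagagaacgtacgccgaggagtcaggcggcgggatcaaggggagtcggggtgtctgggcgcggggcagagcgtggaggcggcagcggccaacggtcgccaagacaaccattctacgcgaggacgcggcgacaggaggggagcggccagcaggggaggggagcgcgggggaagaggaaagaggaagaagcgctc
CDKN2B, chr9:22009306-22009555, minus strand: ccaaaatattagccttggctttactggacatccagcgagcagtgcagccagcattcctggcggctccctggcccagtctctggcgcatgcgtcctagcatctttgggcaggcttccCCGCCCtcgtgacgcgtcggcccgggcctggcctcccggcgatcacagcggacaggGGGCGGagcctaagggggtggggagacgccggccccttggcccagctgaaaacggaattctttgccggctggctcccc
The inner window of CDKN2A held 1 GC box, the outer window 0 and the window of CDKN2B 2, with a GC content of 66.8%, 66.8% and 66.4%. The GC box was present in 42.6% of all windows and in 10 of the 14 member windows. The AP-1 letters TGACTCA, the cyclic AMP response element TGACGTCA, the E2F letters TTTGGCGC or TTTCCCGC and the TATA box TATAAA were in none of the 14 windows, against 4.2%, 1.65%, 1.93% and 10.7% of all windows. The CCAAT letters were in 4 of the 14 and in 32.0% of all windows. Absence says only that these letters are not in these windows, none of which belongs to CCND1 or CCND2.

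The other genes around CDKN2A and CDKN2B were measured too. A gene whose span encloses both (ENSG00000264545) had 7 to 16 counts per library, and C9orf53, 13 bases from CDKN2A, had 8 to 12. DMRTA1, the next gene on the far side, was at 4.65 to 5.91 CPM, and ELAVL2 beyond it at 0.595 to 0.897 CPM. In each library CDKN2A thus stood far above these genes.

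Levels of different genes were compared per kilobase of the canonical transcript in GENCODE 44. By this length CDKN2A was the highest member, at 451 to 510 CPM per kb, above 99.0% of all tested genes, and CDK6, with a transcript of 11663 bases, was the lowest tested member at 2.01 to 2.93 CPM per kb, above 22.6%. CDKN1A (106 to 129 CPM per kb) and CCND1 (90.2 to 140.3) overlapped in range. CDKN2C (67.7 to 76.2) stood above CDK4 (52.8 to 60.9) in every library. CDKN1B followed at 25.7 to 29.1 CPM per kb, CCND3 at 19.1 to 22.1 and CDKN2B at 13.5 to 21.8, the last of which overlapped CCND3 and not CDKN1B. The order depends on the transcript model. Per kilobase of merged exons, CDKN2A was at 114 to 128 CPM per kb, above 97.8% of all tested genes, and overlapped CCND1 at 80.3 to 124.9. CDK4 (31.8 to 36.7) was then above CDKN2C (22.3 to 25.1), and CDKN2B (13.04 to 21.04) was above CCND3 (6.73 to 7.76) and CDKN1B (6.69 to 7.59). CDK6 was the lowest tested member by either length.

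Per length, CCND1 made up 86.4% and 84.9% of D-type cyclin transcript at 6 h and 83.7% and 82.5% at 24 h. CDK4 made up 95.3% and 96.2% of CDK4 and CDK6 at 6 h and 96.5% and 96.3% at 24 h. CDKN2A made up 65.1% and 65.9% of the transcript of the 5 inhibitor genes at 6 h and 66.9% and 70.2% at 24 h. The ratio of D-type cyclin to inhibitor transcript was 0.226 and 0.206 at 6 h and 0.177 and 0.150 at 24 h, so both late libraries lay below both early ones. This ratio depends on the gene length used, because the canonical transcript of CDKN2A has 978 bases and its merged exons 3885 bases. With merged exons the share of CDKN2A among the inhibitors was a mean of 45.7% at 6 h and 50.0% at 24 h, and the cyclin to inhibitor ratio a mean of 0.486 and 0.378. The ratio was smaller at 24 h with either length.

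**Figure D3:**
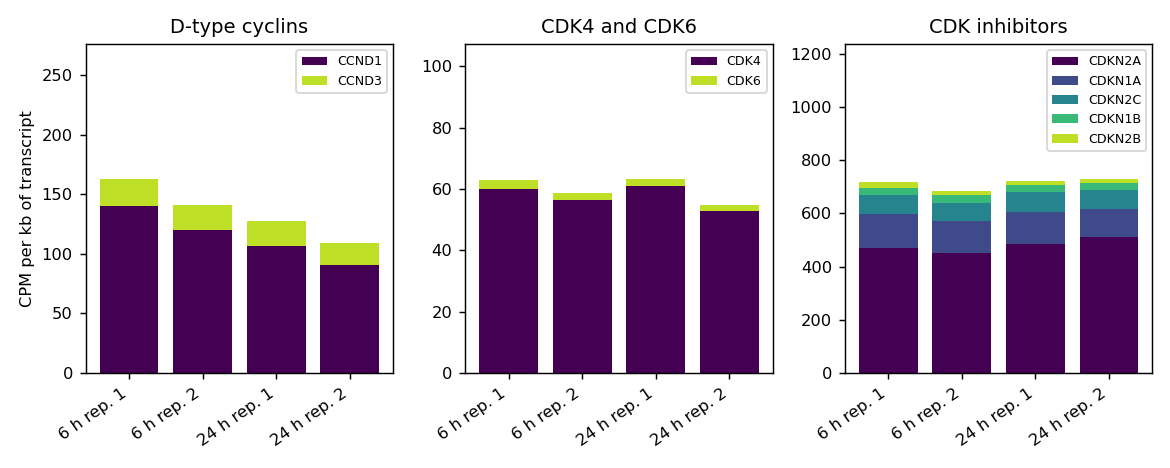
Stacked CPM per kb of transcript (vertical axes, each from 0) in the 4 libraries for the D-type cyclins, for CDK4 and CDK6 and for the CDK inhibitors, with CCND2 too low to be seen. The D-type cyclin bars are 162 and 141 CPM per kb at 6 h and 128 and 109 at 24 h, while the inhibitor bars stay between 685 and 727.

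Leaving out single libraries showed which of these values were carried by 1 library. CCND1 ranged from -0.53 to -0.28 and CDKN2B from -0.61 to -0.24, below 0 in all 4 fits. CDK6 ranged from -0.48 to -0.082, the value nearest 0 being the one without 6 h replicate 1. CDK4 turned sign, to 0.064 without 24 h replicate 2 and 0.0091 without 6 h replicate 1. CDKN1A ranged from -0.25 to -0.052, with the value nearest 0 without 24 h replicate 2.

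**Figure D4:**
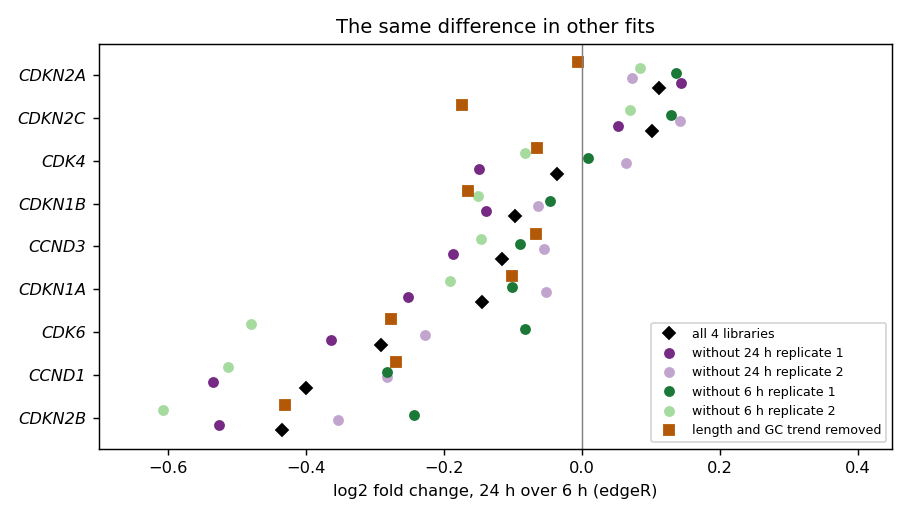
Log2 fold change of 24 h over 6 h by edgeR (horizontal axis) for each tested member with all 4 libraries (black diamonds), without each library in turn (circles) and with the length and GC trend removed (orange squares). All points of CDKN2B and CCND1 lie below -0.2, while those of CDK4 fall on both sides of 0, as do those of CDKN2A and CDKN2C through the trend-removed fit.

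Genes around these members in the cell cycle, mitotic genes and transcriptional regulators among them, were taken from 9 lists with 78 genes, all of which were tested. Of the 78, edgeR called 0 and passed 12 lower and 12 higher at an unadjusted p under 0.05, against 10.5% and 13.9% of all tested genes. DESeq2 called 3, all higher at 24 h, against 5.59% of all genes with an adjusted p, which some of the 78 lack. The median was 0.0051 (-0.021 without 24 h replicate 1), with 39 genes below 0 and 39 above.

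The remaining CDK inhibitors, CDKN2D (p19INK4d, 0.070 ± 0.12) and CDKN1C (p57, 0.040 ± 0.15), were at 17.4 and 7.54 CPM at 24 h. Neither passed the test. The 13 genes of pocket proteins, E2F and DP factors had a median log2 fold change of -0.0079 (0.0067 after removal of the length and GC trend), 7 below 0 and 6 above, and none passed at an unadjusted p under 0.05. The smallest p among them was that of E2F6, a repressor of the family (0.27 ± 0.14, adjusted p = 0.253 by edgeR). Genes of cyclin E, cyclin A and CDK2 had a median of 0.15, or 0.072 after removal of the trend, with 4 of 5 above 0. CCNA2, the cyclin of S phase and G2, had a mean of 93.5 ± 2.49 CPM early and 114 ± 6.94 CPM late (SD, n = 2 per time), and CCNE2 had a log2 fold change of 0.34 ± 0.15. None of the 5 was called by edgeR. DESeq2 called neither CCNA2 nor CDK2 and gave no adjusted p for CCNE1, CCNE2 and CDC25A.

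The CDK-activating kinase, which phosphorylates CDK4, CDK6 and CDK2 in their activation loop, had values above 0 for all 3 of its genes. MNAT1 had a log2 fold change of 0.54 ± 0.19, CDK7 of 0.36 ± 0.11 and CCNH of 0.34 ± 0.12, each with an unadjusted p under 0.05, which 13.9% of all tested genes passed in that direction. Neither tool called them, and their median of 0.36 was 0.23 without 24 h replicate 2 and 0.051 after removal of the trend on length and GC content. In the list for the turnover of D cyclins, p21 and p27 (12 genes, median 0.042), 5 were below 0 and 7 above, and 2 and 4 of these passed an unadjusted p under 0.05. The 2 lower ones, named after their values were seen, were AMBRA1, a ligase receptor for D-type cyclins (-0.34 ± 0.12), and DDB1, an adaptor of CUL4 ligases (-0.37 ± 0.14). CKS1B, the cofactor of SKP2 in p27 degradation, was called higher by DESeq2 (0.66 ± 0.19 by that tool, adjusted p = 0.0207), from a mean of 29.5 ± 1.94 CPM to 46.7 ± 12.5 CPM (SD, n = 2 per time). It was at 37.9 CPM in 24 h replicate 1 and at 55.5 CPM in 24 h replicate 2. FBXO4, which has been reported to target cyclin D1, had a value of 0.60 ± 0.15 without an adjusted p from DESeq2.

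E2F target genes of S phase had a median of -0.073 over 14 genes, 8 below 0 and 6 above. This median was -0.21 without 24 h replicate 1, turned sign (0.040) without 24 h replicate 2 and was -0.028 after removal of the trend. PCNA, the sliding clamp of DNA polymerase, was called higher by DESeq2 (0.43 ± 0.14 by that tool, adjusted p = 0.0367), whereas CDT1, a licensing factor, had a value of -0.38 ± 0.15 and POLA1 one of -0.26 ± 0.11. Mitotic genes had a median of 0.11 over 10 genes, 7 above 0, with CDK1 called higher by DESeq2 (0.59 ± 0.15 by that tool, adjusted p = 0.0132) and CCNB1 at 0.38 ± 0.12 by edgeR. PCNA was at 110 and 122 CPM at 6 h and at 144 and 170 CPM at 24 h. CDK1 was at 162 and 186 CPM at 6 h and at 229 and 299 CPM at 24 h. In both genes 24 h replicate 2 stood highest. Removal of the trend brought the mitotic median to 0.056.

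Factors known to act on the CCND1 promoter lay mostly below 0. Their median was -0.31 over 10 genes, 9 below 0, and 5 had an unadjusted p under 0.05 in that direction, which 10.5% of all tested genes passed. They included TCF7L2, a mediator of WNT signaling (-0.44 ± 0.14), ETS2, an effector of ERK (-0.42 ± 0.14), and STAT3 (-0.38 ± 0.13), with adjusted p of 0.173 in each by edgeR. DESeq2 called 0 of the 10 and gave LEF1 no adjusted p. Removing the length and GC trend brought the median to -0.20, and leaving out 24 h replicate 2 brought it to -0.16. Regulators of CDK inhibitor genes had a median of -0.077 over 9 genes, 6 below 0, which was 0.0036 after removal of the trend and -0.12 without 6 h replicate 1. FOXO3 (-0.49 ± 0.17) and FOXO4 (-0.57 ± 0.18), which activate CDKN1B, were among those with the smallest p, with adjusted p of 0.174 and 0.173 by edgeR. MYC, a repressor of CDKN1A and CDKN2B that was named after its values were seen, was at 43.0 and 42.1 CPM at 6 h and at 40.4 and 40.3 CPM at 24 h, with a log2 fold change of -0.077 ± 0.097 (adjusted p = 0.625 by edgeR).

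**Figure D5:**
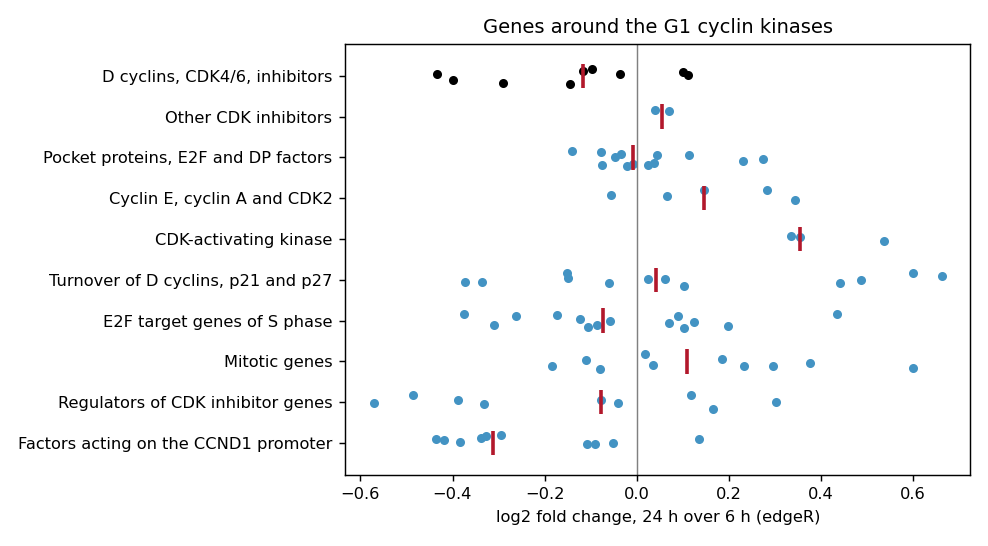
Log2 fold change of 24 h over 6 h by edgeR (horizontal axis) for the tested members (black) and for each gene of the 9 lists (blue), with a red bar at each median. The list of factors acting on the CCND1 promoter has the lowest median, -0.31, and the CDK-activating kinase the highest, 0.36.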

How the data were processed

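RNA sequencing was done on TPC1 cells after 6 h or 24 h of BGJ398, with 2 libraries per time. The authors deposited a table of raw read counts per gene with hg19 coordinates. The submitters' processing notes name STAR 2.3 and DESeq2, whereas the methods of the study name a later STAR. Reads were single-end per the labels and paired-end per the methods. How reads were counted, on which annotation and with or without strand was not given in the sources used here, so reads of overlapping genes may be shared.

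Totals were 24958447 to 26325512 counts per library. Counts were filtered with filterByExpr, scaled with TMM factors and tested by quasi-likelihood (edgeR 4.0.16, R 4.3.3), with time as the only term and Benjamini-Hochberg adjustment over 12549 genes. A gene was called at an adjusted p under 0.05. DESeq2 1.42.0 was the alternative tool. Alternatives were other size factors, other filters, a replicate block, removal of a trend on length and GC content, mitochondrial and ribosomal protein genes left out, the cutoffs of the study and each library left out. DESeq2 without each library, merged exon lengths and list medians under these settings were added after seeing the data. The fits were tested on simulated data. Transcript lengths came from GENCODE 44 and were found for 95.5% of genes, and upstream windows came from RefSeq (GRCh38.p14), so their coordinates differ in build from those of the table.

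The members and lists were chosen with earlier results of these data known. All 10 members were named, with up to 3 genes of smallest p per list, the 2 nearest genes on each side of CCND1 and of CDKN2A and CDKN2B, and the 3 genes most like CCND1. Genes that overlap a member, and MYC, were named in addition. Some genes that these rules name are not reported here.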

Additional observations from a re-analysis of the deposited data

How the results depend on the processing

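The number of genes called was 0 by edgeR and 610 by DESeq2 (414 higher and 196 lower at 24 h). With the cutoffs of the study applied to the edgeR fit in both directions it was 355 (268 higher and 87 lower). The study itself used DESeq2 and the lower direction only. For members these counts were 0, 1 and 0. With single libraries left out, edgeR called 1 to 3126 genes and 0 to 2 members, and DESeq2 called 0 to 1471 genes (133 without 6 h replicate 2) and 0 to 2 members. By edgeR the count was 3126 when 24 h replicate 1 was left out, 887 for 6 h replicate 2 and 1 for either other library, where the lone library is assumed to vary like the remaining pair. The cause was not tested. A replicate block in edgeR called 4565 genes (2363 higher and 2202 lower) and 3 members, CCND1 (adjusted p = 0.00151), CDKN2B (0.00107) and CDK6 (0.0262), and 2619 genes and 3 members with the length and GC trend removed as well. The labels do not say that a number marks a shared culture or day, and same-numbered libraries deviated together with a correlation of 0.43 over only 2 pairs, so the numbers were not taken to pair the libraries.

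CDK4 turned sign without 24 h replicate 2 (0.064 by edgeR, 0.055 by DESeq2) and without 6 h replicate 1 (0.0091 and 0.0063). With the length and GC trend removed CDKN2A was at -0.0054 (-0.0044 with the block) and CDKN2C at -0.17 (-0.18 with the block). CCND1 and CDKN2B were each past the threshold in 5 of 16 alternatives, CDK6 in 2 and the other tested members in 0. CCND1, CDKN2B and CDK6 were all past it with the replicate block, a setting that called 36.4% of all tested genes. DESeq2 without 6 h replicate 2 gave no adjusted p for CCND3, CDK6, CDKN1B, CDKN2B and CDKN2C, which was counted as not past the threshold. With single libraries left out, log2 fold changes by edgeR were -0.19 to -0.055 for CCND3, -0.15 to -0.047 for CDKN1B, 0.073 to 0.14 for CDKN2A and 0.052 to 0.14 for CDKN2C. With merged exon lengths CCND1 made up 92.6% of D-type cyclin transcript at 24 h and 93.8% at 6 h, CDK4 94.5% and 93.5% of both kinases, and CDKN2A 50.0% and 45.7% of inhibitors, and the cyclin to inhibitor ratio was 0.378 and 0.486. These shares changed because the lengths differ. Depth limits CCND2, whose 0 to 1 counts lie under the 3 counts that a count of 0 allows.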
